A study of Mus musculus with 10 samples.

Results

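The genes of the pyruvate dehydrogenase complex that carry the regulated step of pyruvate oxidation were examined in mouse liver RNA, together with the kinases and phosphatases that switch the complex off and on. The members were taken by gene symbol and Ensembl identifier, 10 genes of the 41388 listed. They are the kinases Pdk1, Pdk2, Pdk3 and Pdk4, the phosphatases Pdp1 and Pdp2, and the subunit genes Pdha1, Pdhb, Dlat and Pdhx. Of these, 9 passed the filter on low values and entered the tests, and Pdk3 did not.

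Pyruvate dehydrogenase sits in the mitochondrial matrix and turns pyruvate into acetyl-CoA, a step that cannot be reversed in mammals. Phosphorylation of its E1 alpha subunit by a PDK shuts the enzyme, and a PDP reopens it. In fasted liver a shut complex is known to spare pyruvate for glucose synthesis while fatty acids supply acetyl-CoA.

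The study asked how hepatocyte NAMPT, the enzyme that makes nicotinamide mononucleotide for the NAD+ pool, bears on hepatic gene expression in fasting. Livers came from male mice of strain C57B/6J at 12 weeks of age, and all fasting took place on aspen bedding. WT Refed livers (n = 2) and WT Fasting livers (n = 3) came from littermates with floxed but intact Nampt, and NAMPT LKO Fasting livers (n = 5) came from mice in which Albumin-cre had deleted it, so the deletion is aimed at hepatocytes and other liver cells are expected to keep the gene. The labels give a 24 h fast for both fasting groups and a fast of 22 h with 2 h of refeeding for the refed group, whereas the study's own text describes a shorter fast and random-fed controls and counts more WT Fasting mice than there are libraries here. Which feeding schedule applied cannot be told from the files, so the comparison of fasted with refed livers is described by its labels. No LKO mouse was refed, and an effect of the deletion in the refed state was not measured.

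Each library held between 30603080 and 43434139 counts. Nampt itself was measured at 78.0 and 67.8 in the refed livers, at 63.0, 73.4 and 141 in the WT Fasting livers and between 11.8 and 15.3 in the NAMPT LKO Fasting livers, in CPM after TMM scaling (counts scaled to the library total and corrected for composition, the scale of every level below unless RPKM is named). It was lower in the LKO livers by a log2 fold change of -2.81 (SE 0.22, adjusted p = 0.00102, edgeR's quasi-likelihood test). The 7 hepatocyte markers summed to between 68599 and 120033 in every liver. The 5 pancreatic markers summed to at most 1.15, and 2 of them, Cpa1 and Prss2, were listed at 0 in all. LKO replicate 5 stood apart, with 21.1% of its counts on the mitochondrial genome against 7.42% to 12.9% in the other livers, and its values are named where they stand out.

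Pdk4 and Pdk2 are the kinases with the clearest difference and the highest level. For each, a RefSeq window (GRCm38.p6) upstream of an annotated start site is shown, and use of these sites was not measured. Capitals mark CCAAT boxes, the promoter element bound by NF-Y, which both windows carry on the reverse strand as ATTGG.
Pdk4, chr6:5496310-5496528, minus strand: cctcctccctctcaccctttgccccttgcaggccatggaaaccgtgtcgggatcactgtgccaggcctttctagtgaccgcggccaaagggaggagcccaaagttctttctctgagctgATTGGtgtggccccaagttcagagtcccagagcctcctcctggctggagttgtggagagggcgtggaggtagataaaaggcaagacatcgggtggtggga
Pdk2, chr11:95041372-95041621, minus strand: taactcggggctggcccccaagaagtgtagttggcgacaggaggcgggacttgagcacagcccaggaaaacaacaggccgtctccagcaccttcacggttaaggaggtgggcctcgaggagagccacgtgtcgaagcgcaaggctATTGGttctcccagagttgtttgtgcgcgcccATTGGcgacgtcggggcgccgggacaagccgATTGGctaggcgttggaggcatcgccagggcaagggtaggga
The Pdk4 stretch holds 1 such box and the Pdk2 stretch holds 3. Another Pdk2 window, chr11:95040876-95041125, held no CCAAT on either strand. From the Pdk4 window, 31 bases that lie within the annotated gene were trimmed. CCAAT occurred in 33.8% of all 32851 windows of 250 bases on either strand. Windows were found for 9 of the 10 members, 11 in all. None of them held GTAAACA, the letters of a forkhead site, on either strand, which occurred in 3.17% of all windows. The nuclear receptor half-site AGGTCA was likewise in no window of a member and in 14.0% of all windows. The 250-base Pdk4 window was 58.8% GC with 6 CG dinucleotides, whereas the Pdk2 window above was 62.4% GC with 19. The GC box letters GGGCGG, present in 32.7% of all windows, were in at least 1 window of Pdk1, Pdk3, Pdp2, Pdhb, Dlat and Pdhx but in none of Pdk2, Pdk4 or Pdha1.

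Pdk4, the isoform known for its induction by starvation (ENSMUSG00000019577, chr6:5483351-5496309), was the member that differed most between fasted and refed liver. Its level was 2.73 and 2.84 in the WT Refed livers. It was 40.8, 9.95 and 15.9 in the WT Fasting livers. It was 29.8, 24.4, 25.3, 20.3 and 31.7 in the NAMPT LKO Fasting livers. Every fasted liver of either genotype lay above both refed livers, and the WT Fasting livers spanned the whole LKO range and beyond, with the highest and the lowest fasted values both among them.

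Pdk4 was 7.99-fold higher in WT Fasting vs. WT Refed, a log2 fold change of 3.00 (SE 0.51, 95% interval 1.86 to 4.13, adjusted p = 0.00715). In the LKO livers against the same refed pair it was 9.42-fold higher, a log2 fold change of 3.24 (SE 0.50, adjusted p = 0.00303). These comparisons share their control livers and are not independent of each other. Between the fasted genotypes Pdk4 differed by a log2 fold change of 0.24, with a 95% interval from -0.55 to 1.02 (SE 0.36, adjusted p = 0.906), so that a change within that interval was not resolved. That last difference hung on single WT Fasting livers, and it was -0.11 without replicate 2 and 1.02 without replicate 1, neither past the threshold (adjusted p = 0.964 and 0.3 by edgeR's test).

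The size of the WT difference rested in part on WT Fasting replicate 1, without which the log2 fold change was 2.21 (adjusted p = 0.0034 by edgeR's test). The 2 refed livers limit how firmly the difference can be stated. With only replicate 2 as the refed group, the log2 fold change of Pdk4 was 2.96 in WT and 3.20 in LKO livers, with adjusted p = 0.0847 and 0.0515 by edgeR's test. With only replicate 1 it was 3.02 and 3.25, with adjusted p = 0.0938 and 0.0614. Of 19 alternative analyses, Pdk4 stayed past the threshold in 17 in each of these comparisons, all but the fits that left out a refed liver. In whole liver, fewer cells of a type and less RNA per cell cannot be told apart, for this gene or any below.

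**Figure D1:**
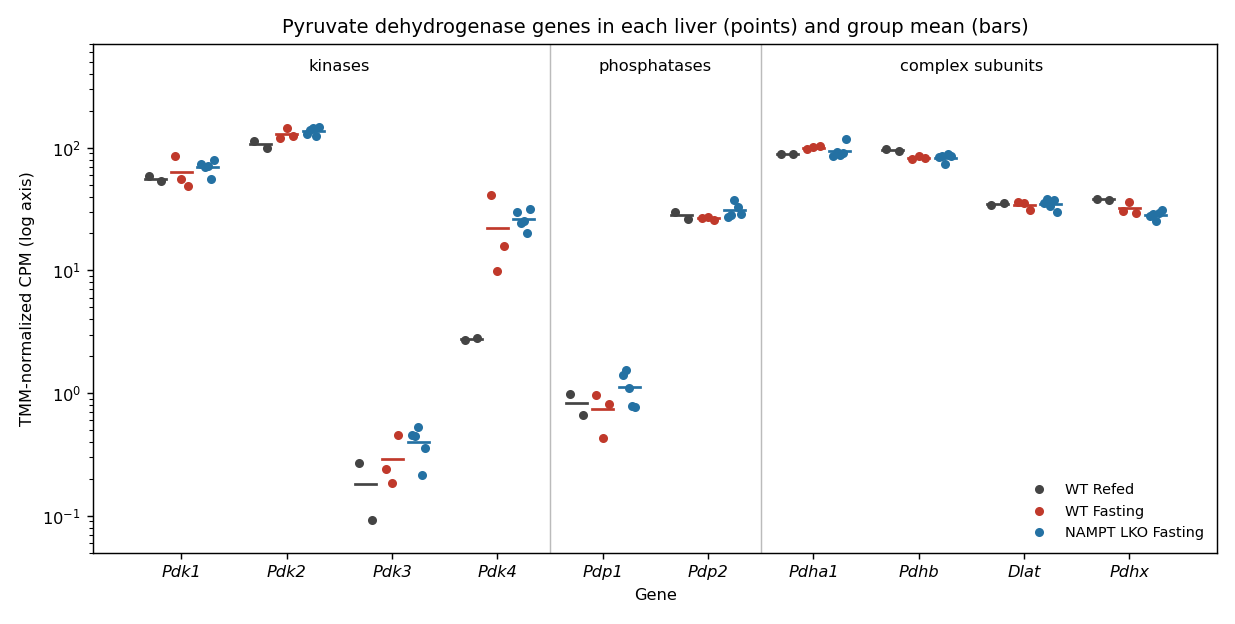
TMM-normalized CPM on a log axis for each of the 10 genes, ordered as kinases, phosphatases and complex subunits, with 1 point per liver and a bar at the group mean (WT Refed n = 2, WT Fasting n = 3, NAMPT LKO Fasting n = 5). Pdk4 lies at 2.73 and 2.84 in the refed livers and between 9.95 and 40.8 in the fasted ones, and Pdk3 and Pdp1 lie lowest, on few counts.

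Pdk2, the kinase most abundant in liver (ENSMUSG00000038967, chr11:95026258-95041354), was at 114 and 99.1 in the refed livers. It reached 121, 146 and 124 in the WT Fasting livers and lay between 125 and 148 in the LKO livers. The fasted and refed livers did not overlap, yet the differences did not pass the threshold by edgeR's quasi-likelihood test. The log2 fold change was 0.29 (SE 0.13, adjusted p = 0.225) in WT Fasting and 0.37 (SE 0.12, adjusted p = 0.0783) in NAMPT LKO Fasting vs. WT Refed. This gene moved across the threshold with the tool and with LKO replicate 5, without which the latter comparison gave an adjusted p of 0.0481 by edgeR's test. With limma's voomWithQualityWeights, which the study's methods name, Pdk2 passed in both comparisons (adjusted p = 0.0315 and 0.0107). With DESeq2 the adjusted p was 0.032 for the latter. Between the fasted genotypes Pdk2 differed by 0.08 on the log2 scale (adjusted p = 0.894).

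Pdk1, an isoform induced by hypoxia in many cell types, was measured at 58.9 and 53.1 in the refed livers, at 86.2, 55.8 and 48.3 in the WT Fasting livers and between 55.9 and 80.1 in the LKO livers. Its groups overlapped in WT Fasting vs. WT Refed, and no comparison passed the test, with log2 fold changes of 0.18, 0.14 and 0.32 for WT Fasting vs. WT Refed, LKO vs. WT Fasting and LKO vs. WT Refed (adjusted p = 0.686, 0.887 and 0.369). WT Fasting replicate 1 held the highest Pdk1 and the highest Pdk4 of all 10 livers, and without it the WT fasting difference of Pdk1 was -0.12. Pdk3, which is expressed mainly in testis and a few other organs, drew between 4 and 22 counts in each library. That depth was under 1 CPM in every liver, and a change in Pdk3 was not detectable.

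The make-up of the kinase pool was compared per length, with RPKM (CPM per kilobase of exon), as a description. The shares depend on the annotated exonic length of each gene, which need not be that of the expressed transcript. Pdk2 supplied 80.3% and 81.0% of the summed kinase RPKM in the refed livers, between 62.6% and 82.0% in the WT Fasting livers and between 69.2% and 75.2% in the LKO livers. Pdk4 supplied 1.75% and 2.07% in the refed livers. In the WT Fasting livers its share was 19.1%, 5.05% and 9.04%, and in the LKO livers it ran from 10.98% to 14.5%. Thus Pdk2 transcript remained the larger pool in each of the 10 livers, including WT Fasting replicate 1, where Pdk4 was highest. Pdk1 held between 12.4% and 18.2% in all livers, and Pdk3 never more than 0.353%.

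The phosphatase that acts in liver mitochondria together with Pdp1 is Pdp2, which is known for its response to insulin. Pdp2 was at 30.1 and 26.3 in the refed livers, at 26.8, 27.4 and 25.8 in the WT Fasting livers and between 27.1 and 37.3 in the LKO livers. Its groups overlapped in each comparison, and its log2 fold changes were -0.08, 0.21 and 0.13 for WT Fasting vs. WT Refed, LKO vs. WT Fasting and LKO vs. WT Refed (adjusted p = 0.795, 0.837 and 0.605). Pdp1, the calcium-stimulated phosphatase prominent in muscle, drew only 14 to 48 counts per library, and its interval for WT Fasting vs. WT Refed was correspondingly wide (log2 fold change -0.16, SE 0.45, adjusted p = 0.874). Pdp2 made up between 95.9% and 98.8% of the summed phosphatase RPKM in all livers.

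Set against each other, kinase and phosphatase transcripts stood at a ratio of 5.02 and 5.07 in the refed livers, in RPKM. The ratio was 7.72, 7.06 and 6.61 in the WT Fasting livers, and 7.25, 7.18, 5.71, 5.48 and 7.90 in the LKO livers. All 8 fasted livers exceeded both refed livers, and the LKO livers reached lower than the WT Fasting livers. The value above the WT Fasting range came from LKO replicate 5, and the other LKO livers lay between 5.48 and 7.25. Among single genes, 49.7% did not overlap in WT Fasting vs. WT Refed and 33.5% in LKO vs. WT Refed. The ratio is not separate from the Pdk4 result. Mean summed kinase RPKM was 43.0 in WT Refed and 55.1 in WT Fasting livers. Within it Pdk4 was 0.817 and 6.32, and Pdk2 was 34.7 and 40.6. Because Pdk2 is the largest kinase term and Pdp2 nearly the whole of the denominator, this ratio is a sum over few genes and was not tested.

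**Figure D2:**
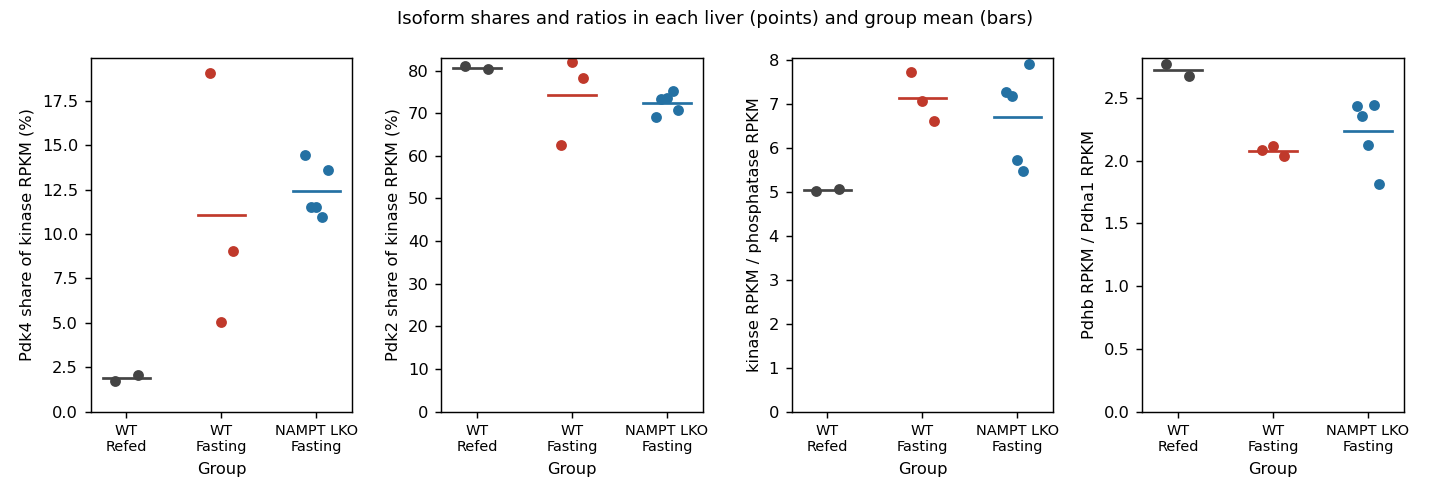
For each liver (points, with a bar at the group mean), the share of summed kinase RPKM from Pdk4 and from Pdk2 in percent, the ratio of summed kinase to summed phosphatase RPKM, and the ratio of Pdhb to Pdha1 RPKM. The Pdk4 share lies at 1.75% and 2.07% in refed livers and between 5.05% and 19.1% in fasted livers, and the Pdhb to Pdha1 ratio is highest in the 2 refed livers.

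The subunit genes differed far less than Pdk4. Pdhx, which encodes the E3-binding protein that anchors dihydrolipoamide dehydrogenase to the core (ENSMUSG00000010914, chr2:103021075-103073513), was at 38.4 and 37.7 in the refed livers and at 30.4, 35.9 and 29.6 in the WT Fasting livers. In the LKO livers it was 28.0, 28.6, 25.1, 29.5 and 31.3. The refed livers lay above all fasted livers, while the fasted genotypes overlapped. Pdhx was lower in NAMPT LKO Fasting vs. WT Refed by a log2 fold change of -0.42 (SE 0.11, 95% interval -0.67 to -0.17, adjusted p = 0.0397). WT Fasting vs. WT Refed gave -0.25 (SE 0.13, adjusted p = 0.268) and LKO vs. WT Fasting gave -0.16 (adjusted p = 0.837), neither past the threshold.

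The Pdhx call sat close to the threshold and held in 10 of 19 alternative analyses, at -0.38 to -0.51 on the log2 scale. By edgeR's test it was lost when WT Refed replicate 1 or 2 was left out (adjusted p = 0.222 and 0.228), without WT Fasting replicate 1 (0.0509), and without LKO replicate 1, 2, 3 or 4 (0.0681, 0.0708, 0.0675 and 0.0589). It was also lost when no filter was set (0.076) and when the fit held the compared groups alone (0.0528).

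Pdhb, the beta subunit of E1, was at 97.7 and 93.7 in the refed livers, at 80.3, 84.8 and 83.0 in the WT Fasting livers and between 73.4 and 88.3 in the LKO livers. Its refed values were also above every fasted value. The log2 fold change was -0.21 (SE 0.11, adjusted p = 0.284) in WT Fasting and -0.20 (adjusted p = 0.228) in LKO vs. WT Refed. Neither passed by edgeR's test. In LKO vs. WT Refed, Pdhb passed in 1 of 19 alternative analyses, that with voomWithQualityWeights (adjusted p = 0.0461). Pdha1, the alpha subunit of E1 and the site of phosphorylation, was at 88.6 and 88.1 in the refed livers and at 96.9, 101 and 102 in the WT Fasting livers. In the LKO livers it was 85.9, 91.4, 86.8, 90.8 and 118, the last from replicate 5, whose mitochondrial share is given above and whose part in this value was not tested. WT Fasting and WT Refed did not overlap for Pdha1, but the log2 fold change of 0.18 did not pass (adjusted p = 0.5).

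The E1 partners, which join in equal numbers in the enzyme, had fold changes of opposite sign in WT Fasting vs. WT Refed. The ratio of Pdhb to Pdha1 RPKM was 2.77 and 2.67 in the refed livers and 2.08, 2.11 and 2.04 in the WT Fasting livers. In the LKO livers it was 2.44, 2.35, 2.13, 2.44 and 1.82. No fasted liver reached a refed liver, and the ratio is given as a description because neither gene passed its own test. Among single genes, 49.7% did not overlap in WT Fasting vs. WT Refed and 33.5% in LKO vs. WT Refed. For ratios that share was not computed. The ratio of Pdhx to Dlat also did not overlap. That of Dlat to Pdha1 did, at 0.295 and 0.307 in the refed and 0.192 to 0.317 in the LKO livers. Its level depends on the annotated exonic lengths, 1485 bases for Pdhb and 3734 for Pdha1, which need not be those of the expressed transcripts. It is therefore no measure of subunit balance, but differences between livers do not depend on these lengths. Pdha1 shares 603 exonic bases with Map3k15 on the opposite strand. Map3k15 drew at most 86 counts in a library, against at least 2650 for Pdha1, and whether counting used strand is not given in the sources used here.

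Dlat, the E2 acetyltransferase core, differed little between groups. It was at 34.2 and 35.4 in the refed livers, at 36.0, 35.6 and 30.8 in the WT Fasting livers and between 29.7 and 38.0 in the LKO livers. Its log2 fold changes were -0.03, 0.02 and -0.01 in the comparisons ordered as above (adjusted p = 0.927, 0.974 and 0.985), and their signs turned with the setting. In NAMPT LKO Fasting vs. WT Fasting, the 95% intervals of the subunit genes ran from -0.39 for Pdhx to 0.25 for Dlat.

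**Figure D3:**
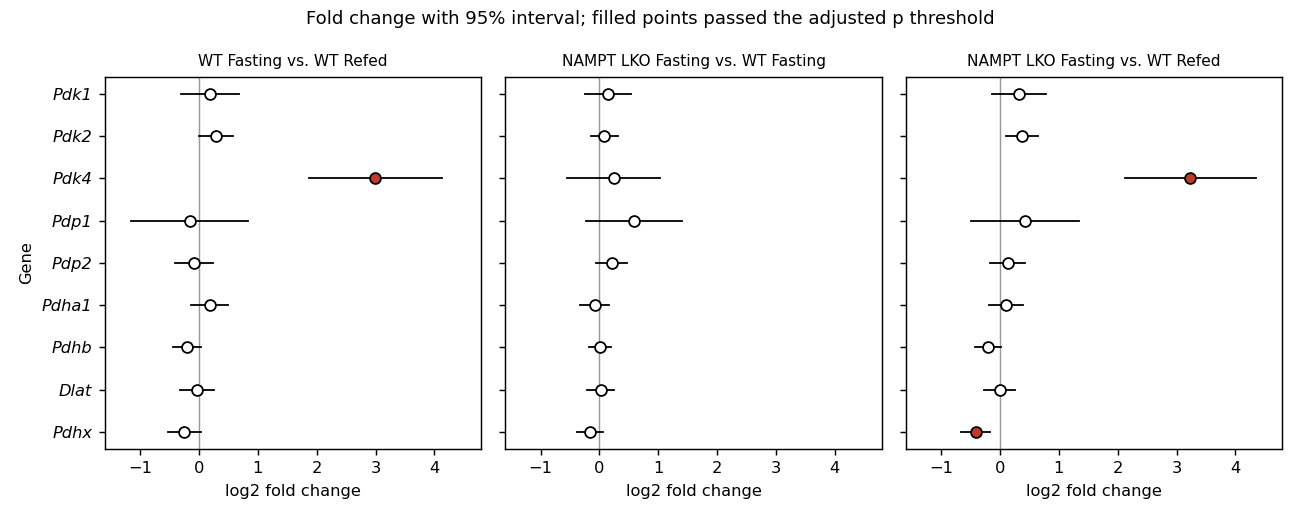
Log2 fold change with its 95% interval for the 9 tested members in WT Fasting vs. WT Refed, NAMPT LKO Fasting vs. WT Fasting and NAMPT LKO Fasting vs. WT Refed, with filled points for an adjusted p at or under 0.05. Filled points are Pdk4 at 3.00 and 3.24 in the comparisons with refed livers and Pdhx at -0.42 in the last panel, and every interval in the middle panel includes 0.

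As a group, 1 of 9 tested members passed in WT Fasting vs. WT Refed, and it was higher. Over all 13444 genes tested, 7.04% passed, 2.68% higher and 4.36% lower. In NAMPT LKO Fasting vs. WT Refed 2 of 9 members passed, against 11.2% of all genes, 4.65% higher and 6.58% lower. With 9 genes, shares of that size correspond to about 1 gene, so these counts are near the background. The median log2 fold change of the members was -0.03 and 0.13 in these comparisons, beside 0.04 and 0.03 over all genes. Scaling by library size alone lowered the share of calls that were higher from 38.1% to 25.7% in the former comparison and from 41.4% to 26.1% in the latter.

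In NAMPT LKO Fasting vs. WT Fasting no member passed, and 0 of 9 had an unadjusted p under 0.05. Over all genes 0.00744% passed, which is Nampt alone, while 811 had an unadjusted p under 0.05. DESeq2, edgeR's exact test and voomWithQualityWeights also called 0 members there. Among values that passed no test, the largest difference was that of Pdp1, at a log2 fold change of 0.58 (SE 0.37, adjusted p = 0.839), on counts of 14 to 48.

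Non-overlapping groups were common with so few livers. They were seen for 5 of 9 members in WT Fasting vs. WT Refed (Pdk2, Pdk4, Pdha1, Pdhb and Pdhx) against 49.7% of all genes, and for 4 of 9 in NAMPT LKO Fasting vs. WT Refed (Pdk2, Pdk4, Pdhb and Pdhx) against 33.5%. Between the fasted genotypes they were seen for 0 of 9 members against 3.99% of all genes. Neither count with refed livers stands out from its background.

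The order of transcript levels within a liver, per exonic length, was set by the E1 beta subunit in all groups. In the refed livers Pdhb led at 66.4 RPKM ± 2.17 (SD, n = 2), followed by Pdk2 at 34.7 ± 3.49 and Pdha1 at 24.4 ± 0.171. These leading genes did not overlap with their neighbours in any group. Pdhx came next at 9.98 ± 0.164, then Pdp2, Pdk1 and Dlat between 7.35 and 8.34, where Pdp2 and Pdk1 overlapped, as did Pdk1 and Dlat. Pdk4 stood far below, at 0.817 ± 0.0189, above only Pdp1 at 0.189 and Pdk3 at 0.0727.

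In the LKO livers Pdk4 lay at the level of this middle group, whereas the WT Fasting livers were spread around it. In the WT Fasting livers it averaged 6.32 RPKM ± 4.73 (SD, n = 3), with single values of 11.7, 2.69 and 4.6. Pdk1, Pdhx, Pdp2 and Dlat ran from 6.32 to 11.1 in those livers. Pdk4 was above this range in replicate 1 and below it in replicates 2 and 3. Its overlap with Dlat at 6.91 ± 0.494 thus rested on replicate 1. In the LKO livers Pdk4 averaged 7.21 ± 1.03 (n = 5), between Pdp2 at 8.59 ± 1.56 and Pdhx at 7.003 ± 0.389 and overlapping with each. In RPKM the highest Pdk4 was 4.33 times the lowest within the WT Fasting livers and 1.5 times the lowest within the LKO livers.

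The genes whose levels followed Pdk4 most closely over the 10 livers were Rin2 (Pearson's r = 0.975), March6 (r = 0.971) and Ctcfl (r = 0.968), the top 3 of 9139 genes whose mean level reached 5 CPM. Rin2 encodes an exchange factor for RAB5, March6 a ubiquitin ligase of the endoplasmic reticulum, and Ctcfl a germline paralog of CTCF. Rin2 was at 11.1 and 11.2 in the refed livers and between 17.1 and 23.9 in the fasted livers. March6 was at 122.0 and 122.5 in the refed and between 147 and 171 in the fasted livers. Ctcfl was low, at 1.10 and 1.41 in the refed and between 4.19 and 9.58 in the fasted livers. The correlation does not measure the size of a difference. The 10 points share the refed-to-fasted difference and the same libraries, so these values describe likeness of pattern only.

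Around the members, 59 genes on 4 lists were followed, of which 55 were tested and Pdha2, Slc19a3, Ogdhl and Me3 were not. In WT Fasting vs. WT Refed 4 of 55 passed and all were higher, beside 7.04% of all genes passing and 2.68% passing higher. In NAMPT LKO Fasting vs. WT Refed 6 of 55 passed, again all higher, beside 11.2% passing and 4.65% passing higher. In NAMPT LKO Fasting vs. WT Fasting 0 of 55 passed by edgeR's tests, DESeq2 or voomWithQualityWeights. There, 2 had an unadjusted p under 0.05, Gpt at -0.29 and Bckdhb at -0.59, both named after their values were seen. The median log2 fold change over the lists was 0.12, -0.03 and 0.08 in WT Fasting vs. WT Refed, LKO vs. WT Fasting and LKO vs. WT Refed. Counted in both directions, the shares of list genes that passed are near the background. Against the background of higher calls alone they are above it, on 4 and 6 genes, and this was not tested. The same background shares apply to the counts per list below. The counts also moved with the tool, voomWithQualityWeights calling 17 and 19 in the comparisons with refed livers.

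Among the sister 2-oxoacid dehydrogenases, 1 of 8 tested genes passed, and it was a phosphatase. Ppm1k, which dephosphorylates and thereby activates the branched-chain ketoacid dehydrogenase, was at 33.0 and 29.5 in the refed livers, at 104, 86.0 and 81.2 in the WT Fasting livers and between 82.5 and 127 in the LKO livers. The groups were far apart, with a log2 fold change of 1.53 (SE 0.20, adjusted p = 0.00179) in WT Fasting and 1.67 (adjusted p = 0.000598) in LKO vs. WT Refed. The kinase that opposes it, Bckdk, gave -0.15 and -0.19 in these comparisons (adjusted p = 0.726 and 0.608).

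For pyruvate supply and its other fates, 1 of 19 tested genes passed in WT Fasting vs. WT Refed. This was Pck1, the cytosolic phosphoenolpyruvate carboxykinase of gluconeogenesis, at 1646 and 1567 in the refed livers, 4631, 3871 and 4260 in the WT Fasting livers and between 3024 and 4362 in the LKO livers. Its log2 fold change was 1.41 (SE 0.17, adjusted p = 0.00138) in WT Fasting and 1.18 (adjusted p = 0.00158) in LKO vs. WT Refed. In the latter Slc16a7, a monocarboxylate carrier named after its value was seen, passed as well at 0.61 (adjusted p = 0.034). The mitochondrial pyruvate carrier genes Mpc1 and Mpc2 each gave 0.12 in WT Fasting vs. WT Refed (adjusted p = 0.692 and 0.704), and pyruvate carboxylase, Pcx, gave 0.35 (adjusted p = 0.235).

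Of 16 transcription factors and coactivators linked to Pdk genes, 2 passed in WT Fasting vs. WT Refed, both higher. Over all genes 2.68% passed higher there, and 4.65% in LKO vs. WT Refed. Cebpb, a bZIP factor of gluconeogenic and acute-phase transcription, was higher by 1.48 on the log2 scale (SE 0.31, adjusted p = 0.0168). Esrrg, the orphan nuclear receptor ERR gamma, was higher by 1.12 (SE 0.29, adjusted p = 0.0397), at 2.35 and 2.51 in the refed and 6.42, 4.5 and 4.92 in the WT Fasting livers. Against the refed livers, 3 passed in the LKO livers, Cebpb at 1.01 (adjusted p = 0.0418) and, named after their values were seen, Ppargc1a at 1.76 (adjusted p = 0.0236) and Ppara at 0.53 (adjusted p = 0.0454). Ppargc1a encodes the coactivator PGC1 alpha and Ppara the fatty acid receptor of the fasting response. Cebpb in LKO replicate 5 was 71.2, close to the refed values of 69.8 and 62.9, whereas the other LKO livers lay between 126 and 173.

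The list of the shared E3 subunit, the phosphatase regulatory subunit, and the lipoate and thiamine supply held 12 tested genes, of which 0 passed in any of the comparisons by edgeR's test. At an unadjusted p under 0.05 there were 4, 0 and 4 in WT Fasting vs. WT Refed, LKO vs. WT Fasting and LKO vs. WT Refed. For these comparisons voomWithQualityWeights called 3, 0 and 4 genes of the list, and DESeq2 called 0, 0 and 1. Dld, the E3 subunit shared with the sister complexes, was at 126 and 128 in the refed livers and between 107 and 135 in the WT Fasting livers. In the LKO livers it was 115, 128, 115, 126 and 227, the last again from replicate 5. Pdpr, the regulatory subunit that restrains Pdp1, gave 0.36 in WT Fasting (adjusted p = 0.152) and 0.44 in LKO vs. WT Refed (adjusted p = 0.0507), the latter just short of the threshold.

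**Figure D4:**
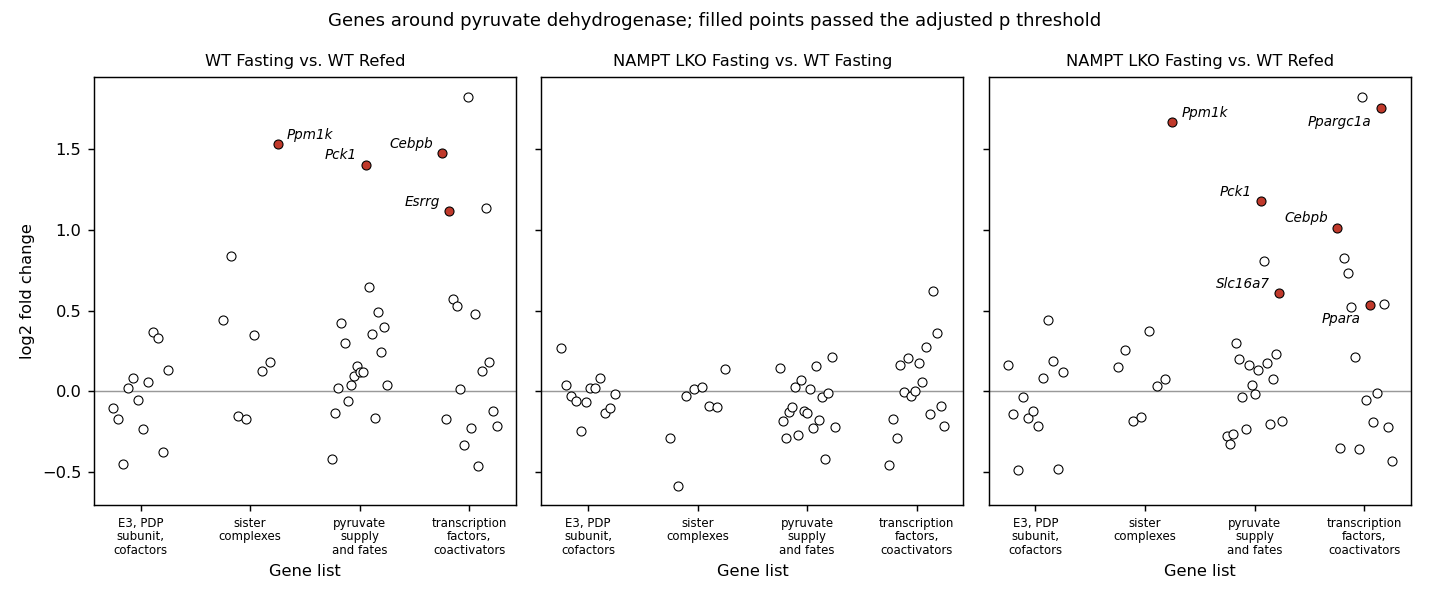
Log2 fold change of the 55 tested genes on the 4 lists around pyruvate dehydrogenase, 1 panel per comparison and 1 point per gene, filled and named where the adjusted p was at or under 0.05. Ppm1k at 1.53 and Pck1 at 1.41 are among the 4 filled points of WT Fasting vs. WT Refed, no point is filled in NAMPT LKO Fasting vs. WT Fasting, and 6 are filled in NAMPT LKO Fasting vs. WT Refed.

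The marker sums of some liver cell types differed between these groups, while others overlapped. The 5 cholangiocyte markers summed to between 34.0 and 54.5 in the LKO livers, against 15.2 to 22.3 in the WT Fasting and 20.1 to 22.4 in the refed livers. The 5 endothelial markers summed to between 171 and 178 in the WT Fasting and between 151 and 156 in the refed livers. Their LKO range, 151 to 197, overlapped both. The 5 Kupffer cell markers summed to between 125 and 215 in the WT Fasting and between 94.99 and 124 in the refed livers. Their LKO range, 88.1 to 188, also overlapped both. The 5 stellate cell markers summed to between 177 and 245 in the LKO livers against 146 and 147 in the refed ones. In the WT Fasting livers they summed to between 145 and 185, overlapping both. The 7 hepatocyte markers summed to between 85593 and 111561 in the WT Fasting livers and to 80054 and 84129 in the refed livers. They ran from 68599 to 120033 in the LKO livers. With so few livers, 49.7% of all genes also did not overlap in WT Fasting vs. WT Refed, and 33.5% in LKO vs. WT Refed. Between the fasted genotypes 3.99% did not. The part of these cell types in the values of the members was not tested. Adipocyte markers summed to at most 0.325 and skeletal muscle markers to at most 1.14 in any liver.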

How the data were processed

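RNA-seq of whole liver from 10 mice was analysed, grouped by the sample titles. Per the labels, the authors used STAR 2.5.1a and featureCounts 1.4.6-p5 on GRCm38; their methods name other versions. The authors deposited counts per Ensembl gene, CPM values (the counts over the library total) and RPKM values (CPM per kilobase of exonic length), and the latter were recomputed from the deposited counts without difference beyond rounding.

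From the counts, genes that exceeded 1 CPM in 1 or more libraries, rRNA genes aside, were retained (13444) and tested with edgeR 4.0.16 in R 4.3.3 (TMM, quasi-likelihood, all 10 libraries, 1 mean per group, Benjamini-Hochberg over all genes, threshold 0.05). Alternatives used limma 3.58.1, DESeq2 1.42.0, other scaling and filters, a GC correction, fits restricted to the compared groups or blocked by replicate number, and fits that omit each library in turn. Of these tests, voomWithQualityWeights is the one in the study's methods, whereas the legend of its fasting figure names edgeR's exact test. The members, lists and rule for named genes were chosen with earlier results of these data known. The rule takes the members, Nampt, up to 5 called genes per list in WT Fasting vs. WT Refed with the lowest p and any called between the fasted genotypes, and the 3 genes most like Pdk4. Replicates are different mice. No 2 libraries of a group agreed within sampling noise. On simulated WT Fasting vs. WT Refed data, drawn for 13444 genes, the test recovered 44 of 100 genes changed by a log2 fold change of 1. It recovered 92 of 100 changed by 2, with 10 unchanged genes called. No other genes were changed there, whereas 946 were called in the real comparison, so recovery in these data can differ. Promoter windows came from RefSeq and were trimmed to bases outside the gene.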

Additional observations from a re-analysis of the deposited data

Results flagged for a closer look

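Within the NAMPT LKO Fasting group, replicate 5 lay apart from the other 4 livers for 3 of 17 values examined by Dixon's test at its 95% limit, where chance gives about 0.85. Pdha1 was 118 TMM-normalized CPM in that liver, against 85.9 to 91.4 in the other LKO livers. On the deposited CPM scale, without the TMM factor, it was 99.2 against 86.6 to 90.7, and its gap of 0.676 of the range was under the limit of 0.71, so on that scale it did not pass. The ratio of Dlat to Pdha1 RPKM was 0.192, whereas the group median was 0.313. The ratio of Pdhx to Dlat RPKM was 1.31, whereas the group median was 0.982. The same library had 21.1% of its counts on the mitochondrial genome, and the part of that share in these values was not tested. The 3 values are linked, since Pdha1 and Dlat each enter 2 of them.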

How the results depend on the processing

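Of 531 member values recomputed under an alternative, 486 kept their direction and their side of the threshold, 27 turned direction, 13 fell short of the threshold and 5 newly passed it. With voomWithQualityWeights 2 members passed in WT Fasting vs. WT Refed and 4 in NAMPT LKO Fasting vs. WT Refed, with 17 and 19 genes on the lists. For the latter comparison DESeq2 called 3 members and 11 list genes, library size alone 3 list genes, no filter 1 member, and the groups compared alone 1 member and 3 list genes (9 list genes in WT Fasting vs. WT Refed). At an unadjusted p under 0.05, 3 members passed in NAMPT LKO Fasting vs. WT Refed, and 17, 2 and 17 list genes in WT Fasting vs. WT Refed, LKO vs. WT Fasting and LKO vs. WT Refed. Leaving out 1 library gave 0 to 1 and 0 to 3 members and 2 to 6 and 2 to 8 list genes in the comparisons of WT Fasting and of LKO with the refed livers. The cause of these shifts was not tested, except that fewer samples enter the last ones.

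None of the values that turned direction had passed the test. With voomWithQualityWeights Dlat was 0.0061 in WT Fasting vs. WT Refed and 0.046 in LKO vs. WT Refed, and Pdhb -0.0047 in LKO vs. WT Fasting. With library size alone Pdhb was -0.0205 in LKO vs. WT Fasting and Pdha1 -0.0039 in LKO vs. WT Refed. Pdhb was -0.0033 without the filter, and after the GC trend was removed Pdhb was -0.041 and Dlat -0.0088, all in LKO vs. WT Fasting. With 1 library left out, WT Fasting vs. WT Refed ranged from -0.12 to 0.33 for Pdk1, -0.42 to 0.14 for Pdp1, -0.18 to 0.0079 for Pdp2 and -0.079 to 0.032 for Dlat. LKO vs. WT Fasting ranged from -0.023 to 0.43 for Pdk1, -0.11 to 1.02 for Pdk4, -0.014 to 0.0502 for Pdhb and -0.046 to 0.073 for Dlat, and LKO vs. WT Refed from -0.049 to 0.048 for Dlat. A refed group of 1 liver was assumed to vary like the other groups.

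Replicate numbers 1 to 3 are shared by the fasted groups. Deviations of same-numbered livers from their group means correlated at 0.104, 0.0782 and 0.0971. Differently numbered livers were not compared, so these values cannot decide whether the numbers pair the livers. The main fit did not pair them. With the replicate block on libraries numbered 1 to 3, 0 members passed in LKO vs. WT Fasting and Pdhb was -0.038, and without the block -0.035.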
